A study of Mus musculus with 9 samples.

Results

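Glutamate receptors and the scaffolds that hold them at the postsynaptic membrane were examined in RNA from mouse cerebellum, over a set of 36 genes chosen by symbol. The set holds the AMPA receptor subunits Gria1 to Gria4, 6 NMDA receptor subunits, the kainate receptor subunits Grik1 to Grik5, the delta receptor Grid1, 6 metabotropic receptors, 3 Homer, 3 Shank and 4 Dlg scaffolds, 3 neuronal pentraxins and the vesicular glutamate transporter Slc17a6. Each symbol matched a row, so the set is 36 of 53924 named rows, and 36 of 36 passed the filter on low counts, which kept 16634 rows. Bulk RNA sequencing covered 9 libraries in 3 groups. Control mice were given saline. The 3AP mice were given 3-acetylpyridine, a neurotoxin best known for destroying the inferior olive, the source of the climbing fibres to the cerebellum. The PLX3AP mice were given 3-acetylpyridine after PLX3397, an inhibitor of the CSF1 receptor used to deplete microglia. Each group had 3 libraries. Strain, age, sex, doses and the interval before sampling are not stated in the labels, and a group given PLX3397 alone was not analysed here. The labels number the samples but do not say that each came from its own animal, so the p-values measure the spread between these samples.

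Glutamate is the main excitatory transmitter of the cerebellum, released by parallel fibres of granule cells, by climbing fibres and by mossy fibres. AMPA receptors carry most of the fast current, NMDA receptors pass calcium when the membrane is depolarised, kainate receptors act both before and after the synapse, and metabotropic receptors signal through G proteins. Dlg, Shank and Homer proteins form the layered scaffold beneath these receptors, Homer proteins linking group I metabotropic receptors to calcium stores, and neuronal pentraxins cluster AMPA receptors from outside the cell. In bulk tissue, fewer cells of a type and less RNA per cell cannot be told apart.

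Libraries held 18452256 to 22358447 estimated counts, of which the 36 genes took 0.548 to 0.617%. The smallest count behind any value was 25, for Nptx2, and the next members by their smallest count were Grm8 at 115 and Grm5 at 141. Some libraries stood apart over these genes. Control replicate 3 was the lowest of its group for 27 of 36 members (75%), where it was lowest for 38.5% of all tested genes. PLX3AP replicate 1 was the lowest of its group for 20 of 36 (55.6%), against 40.3% of all tested genes. In 3AP replicate 2, Slc17a6, Grm5 and the AMPA receptor auxiliary gene Cnih3 (which is not a member and was picked after its values were seen) were each far below the other libraries of the group. Among the members, Grik1, Gria1, Homer1, Grm5 and Slc17a6 are also given with a library named here left out, and the others are not. Exons of 18 of the 36 genes overlap those of another annotated gene, 8 on the same strand and 10 on the opposite strand. Whether counting used strand is not given in the sources used here, so reads from Grin1 and Grin1os, or from Homer3 and Ddx49, may not be told apart, and Nptxr shares exon bases with Npcd on the same strand. Grik1, Gria1, Homer1, Grm4 and Slc17a6 overlap no other annotated exon.

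Few members passed a test between the groups, and few of all tested genes did. After 3-acetylpyridine, 1 of 36 members passed the test against control, the kainate receptor subunit Grik1, which was lower (edgeR, adjusted p under 0.05). This is 2.78% of the members, and of all 16634 tested genes 4.93% passed in either direction and 1.18% were lower. Grik1 was also the member that passed in PLX3AP against 3AP, where it was higher, and there 3.73% of all genes passed and 0.577% were higher. Between PLX3AP and control 0 of 36 members passed, against 0.120% of all genes. In the test of any difference between the 3 groups Grik1 passed again, as 1 of 36, against 4.76% of all genes. The comparisons of 3AP with control and of PLX3AP with 3AP share the 3AP libraries, so their values for Grik1 are not independent of each other.

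At an unadjusted p under 0.05, edgeR gave 8 members in 3AP against control (1 higher and 7 lower, 22.2%, with 17.0% of all genes), 3 in PLX3AP against 3AP (3 higher, 8.33%, with 12.1% of all genes) and 3 in PLX3AP against control (1 higher and 2 lower, 8.33%, with 9.35% of all genes). The libraries of the compared groups did not overlap for 7 members in the first comparison (19.4%, with 24.7% of all genes), 5 in the second (13.9%, with 16.9%) and 8 in the comparison of PLX3AP with control (22.2%, with 14.3%). Overlap is judged on TMM-scaled CPM here and below, save for shares of TPM. In the deposited TPM, groups described below as apart in CPM overlapped for Grik4, Gria4, Grm4, Grm7, Grm8, Homer1 and Slc17a6. For Grid1, PLX3AP and control also overlapped in TPM, but 3AP and control did not. The median log2 fold change of the members was -0.05 in 3AP against control, -0.02 in PLX3AP against 3AP and -0.04 in PLX3AP against control, and that of all tested genes was 0.00, -0.01 and 0.00. Values below 0 were found for 22, 20 and 22 of the 36 members, and for 49.7, 51.8 and 49.6% of all tested genes.

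The fold changes were small and their intervals moderately wide. They ran from -0.44 to 0.23 in 3AP against control, from -0.31 to 0.38 in PLX3AP against 3AP and from -0.56 to 0.29 in PLX3AP against control, all on the log2 scale. The 95% interval had a median length of 0.21 to each side of the estimate in each comparison. It lay wholly within 0.5 of 0, a 1.41-fold difference, for 24, 27 and 27 of the 36 members. For the remaining members these data do not exclude a difference of that size.

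**Figure D1:**
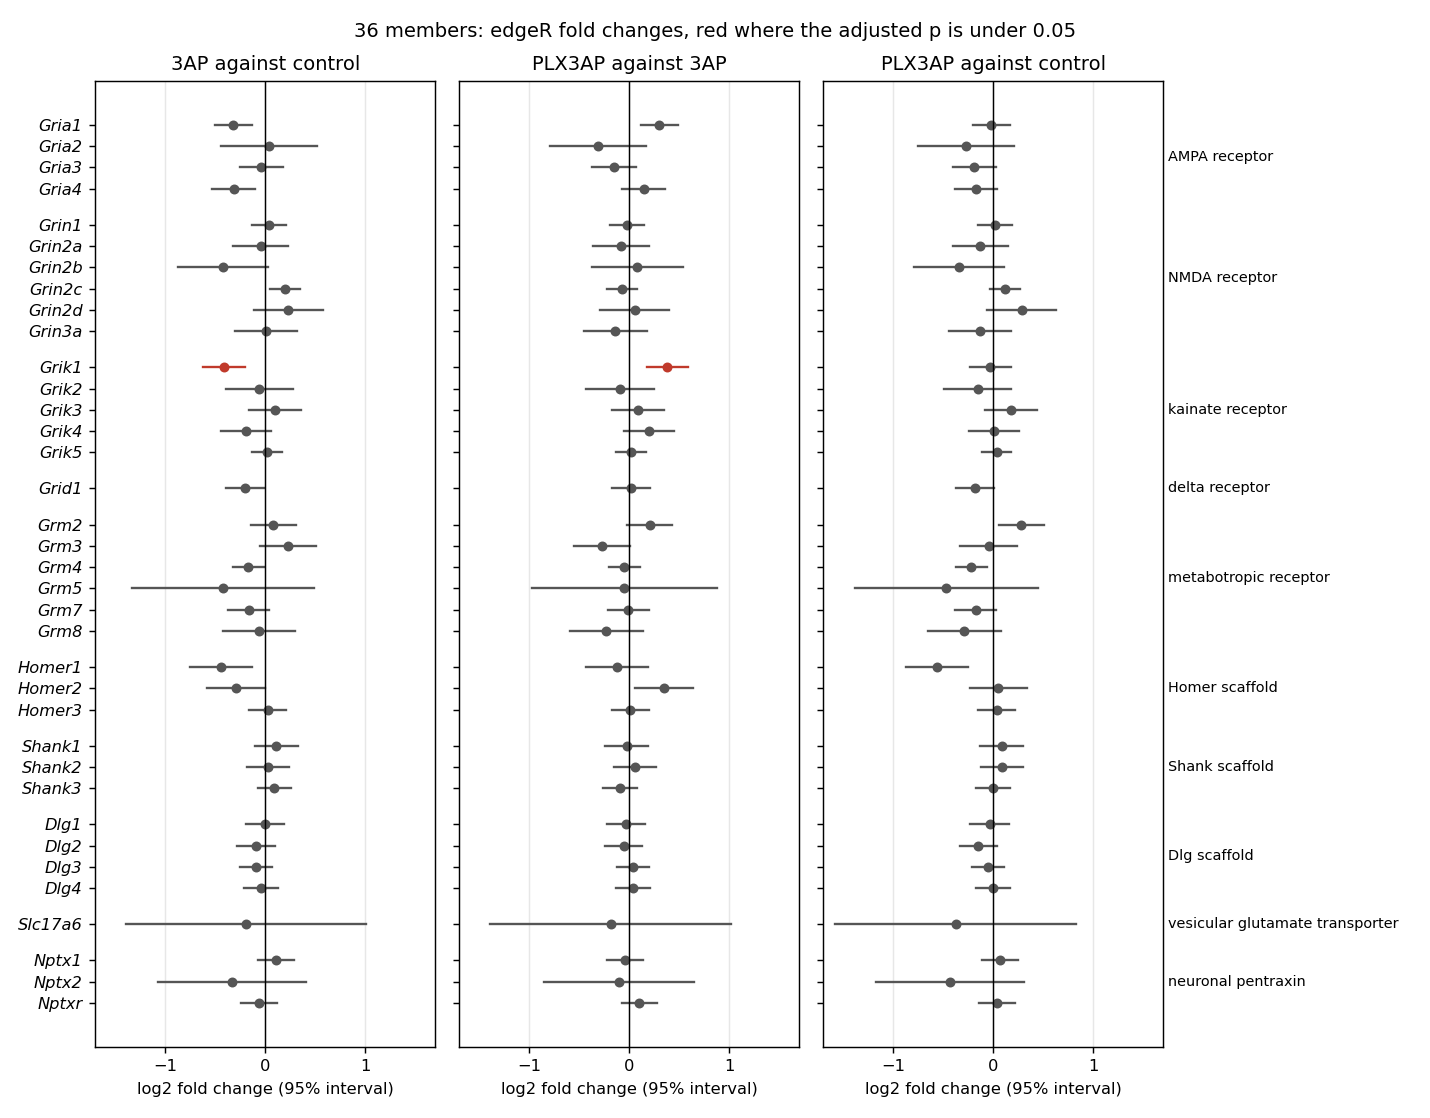
Log2 fold change of each of the 36 members in the 3 comparisons (points) with its 95% interval (lines), from the edgeR fit, grouped by class from top to bottom, with adjusted p under 0.05 in red. Grik1 is red at -0.41 in 3AP against control and at 0.38 in PLX3AP against 3AP, and no point is red in PLX3AP against control.

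**Figure D2:**
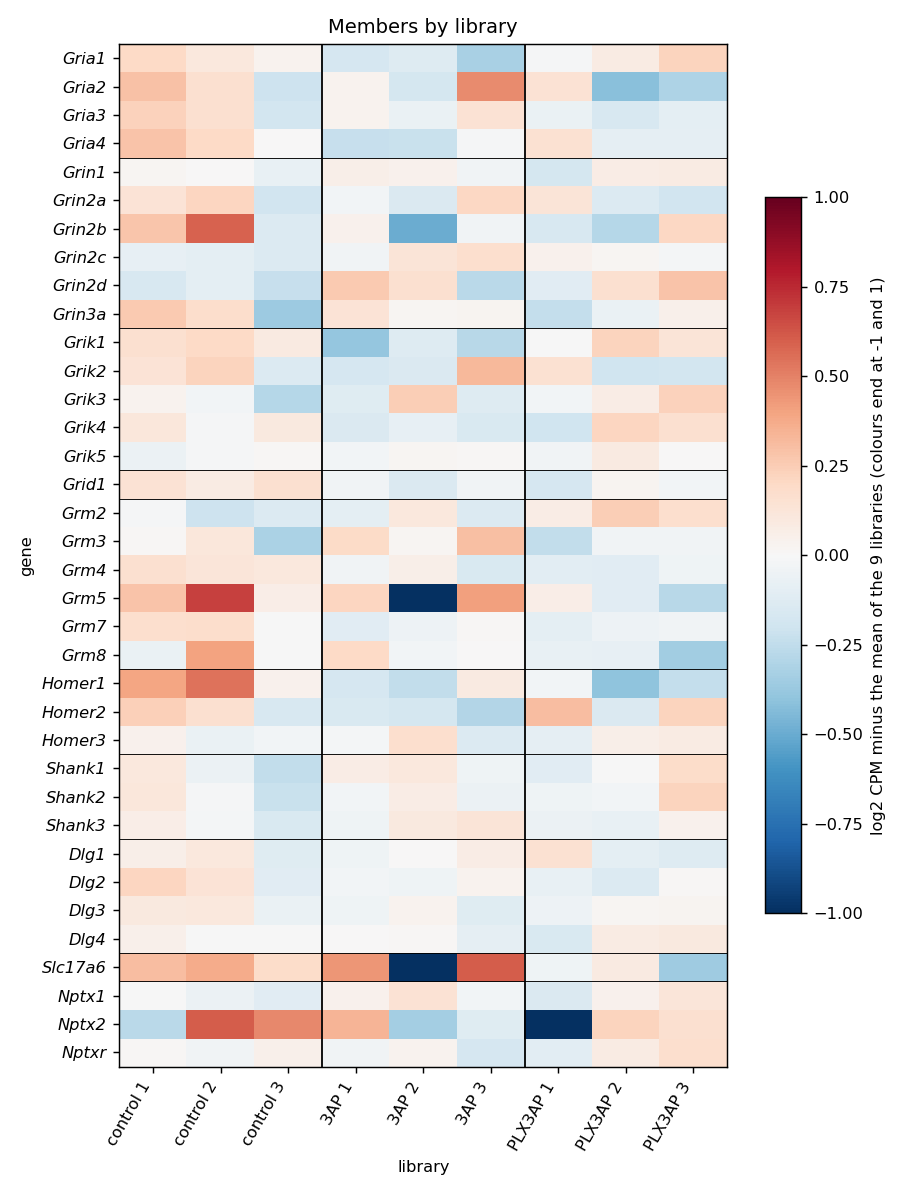
Level of each member in each of the 9 libraries as log2 CPM minus the gene's mean over the 9 libraries, with colours that end at -1 and 1. The 3AP cells of Grik1 and Gria1 are blue, the control replicate 3 column is paler or bluer than the other control columns for most genes, and Slc17a6 and Grm5 are dark blue in 3AP replicate 2.

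Kainate receptors are tetramers of the subunits Grik1 to Grik3, which can form channels by themselves, with Grik4 and Grik5, which need them as partners. Grik1 (GluK1; chr16:87895900-88290265, minus strand, GRCm38) is a protein-coding gene. It stood at 34.4, 35.5 and 32.8 CPM in control replicates 1 to 3. The 3AP libraries had 23.6, 28.2 and 25.4 CPM. PLX3AP libraries had 30.8, 36.1 and 33.7 CPM. Every 3AP library was thus below every control and every PLX3AP library, while control and PLX3AP overlapped. The group means were 34.2 ± 1.35, 25.7 ± 2.36 and 33.5 ± 2.66 CPM (SD, n = 3 each). In 3AP against control Grik1 fell by 0.41 on the log2 scale (SE 0.10, 95% interval -0.62 to -0.20, edgeR adjusted p = 0.0252). In PLX3AP against 3AP it rose by 0.38 (SE 0.10, interval 0.18 to 0.59, adjusted p = 0.0446). Against control, PLX3AP was at -0.03 (SE 0.09, interval -0.23 to 0.18, adjusted p = 0.949).

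The direction for Grik1 held in 17 of 17 alternative settings in both comparisons, all of which reuse these libraries. Its call held in 10 of 17 in 3AP against control and in 8 of 17 in PLX3AP against 3AP. With limma on log2 TPM the adjusted p was 0.199 to 0.286 in the first comparison and 0.300 to 0.407 in the second. With the 2 groups only, the edgeR adjusted p was 0.0304 and 0.109. Leaving out control replicate 1 or 2 or 3AP replicate 1 or 3 moved the adjusted p of 3AP against control to 0.0970, 0.0995, 0.126 and 0.0661. In PLX3AP against 3AP it became 0.224 and 0.119 without 3AP replicates 1 and 3, 0.217 and 0.137 without PLX3AP replicates 2 and 3, and 0.0565 with the replicate numbers as a block. Grik1 still passed in 3AP against control without control replicate 3 (0.0414) and without 3AP replicate 2 (0.0251), and in PLX3AP against 3AP without 3AP replicate 2 (0.0366) and without PLX3AP replicate 1 (0.0256). Its adjusted p in the edgeR test across the 3 groups was 0.0375 and ranged from 0.0189 to 0.222 with 1 library left out.

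The other kainate subunits did not pass in any comparison. The most abundant by control TPM was Grik5, a high-affinity partner subunit, at 27.9 ± 0.938, close to Grik2 at 26.0 ± 3.24 (SD, n = 3). Grik5 had 60.2, 62.1 and 63.1 CPM in control, 61.3, 63.4 and 63.0 in 3AP and 61.1, 66.4 and 62.6 in PLX3AP. These overlapping values gave log2 differences of 0.02 (SE 0.07, adjusted p = 0.932 by edgeR) in 3AP against control, 0.02 (SE 0.07, adjusted p = 0.947) in PLX3AP against 3AP and 0.04 (SE 0.07, adjusted p = 0.899) in PLX3AP against control, with intervals no wider than -0.13 to 0.18. Grik4, the other partner subunit, was at 16.9 to 17.7 CPM in 3AP and 18.6 to 20.3 in control, with no overlap, at -0.20 (adjusted p = 0.440 by edgeR). Grik2 and Grik3 overlapped between all groups, Grik2 at 64.6 to 92.9 CPM and Grik3 at 66.1 to 95.5 CPM over the 9 libraries.

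AMPA receptor subunits form the channel of fast transmission, and Gria2 is the subunit whose edited form keeps calcium out. Gria1 (GluA1; chr11:57011387-57330244, plus strand), known in cerebellum from Bergmann glia as well as neurons, had 591, 554 and 528 CPM in control. It was measured at 458, 472 and 412 CPM in 3AP and at 510, 544 and 600 CPM in PLX3AP. As for Grik1, each 3AP library was below each library of the other groups, which overlapped. The log2 difference was -0.32 (SE 0.08, interval -0.50 to -0.14, edgeR adjusted p = 0.0503) in 3AP against control and 0.30 (SE 0.08, interval 0.12 to 0.49, adjusted p = 0.0801) in PLX3AP against 3AP, and it passed in neither. PLX3AP against control was at -0.02 (SE 0.08, interval -0.20 to 0.17, adjusted p = 0.973). Gria1 passed in 5 of 17 alternative settings in 3AP against control and in 3 of 17 in PLX3AP against 3AP, always in the same direction. Among these is PLX3AP against 3AP without PLX3AP replicate 1 (0.36, adjusted p = 0.0349 by edgeR). With any other library of those groups left out, Gria1 did not pass there (edgeR adjusted p = 0.105 to 0.323). In 3AP against control it did not pass with any library of the groups left out (0.0539 to 0.222).

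Gria4, abundant in granule cells and Bergmann glia, had 464, 437 and 381 CPM in control, 325, 327 and 378 in 3AP and 423, 358 and 358 in PLX3AP. Control and 3AP did not overlap, although 3AP replicate 3 came within a few CPM of control replicate 3, and the PLX3AP libraries spread over both ranges. The log2 difference was -0.32 (SE 0.10, edgeR adjusted p = 0.0966) in 3AP against control, 0.15 (SE 0.10, adjusted p = 0.646) in PLX3AP against 3AP and -0.17 (SE 0.10, adjusted p = 0.597) in PLX3AP against control. It passed in 3 of 17 alternative settings in 3AP against control. Gria2 varied more within groups than between them, at 190 to 269 CPM in control, 194 to 305 in 3AP and 164 to 243 in PLX3AP. Gria3 lay between 104 and 138 CPM in all libraries, and the 3 groups overlapped.

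**Figure D3:**
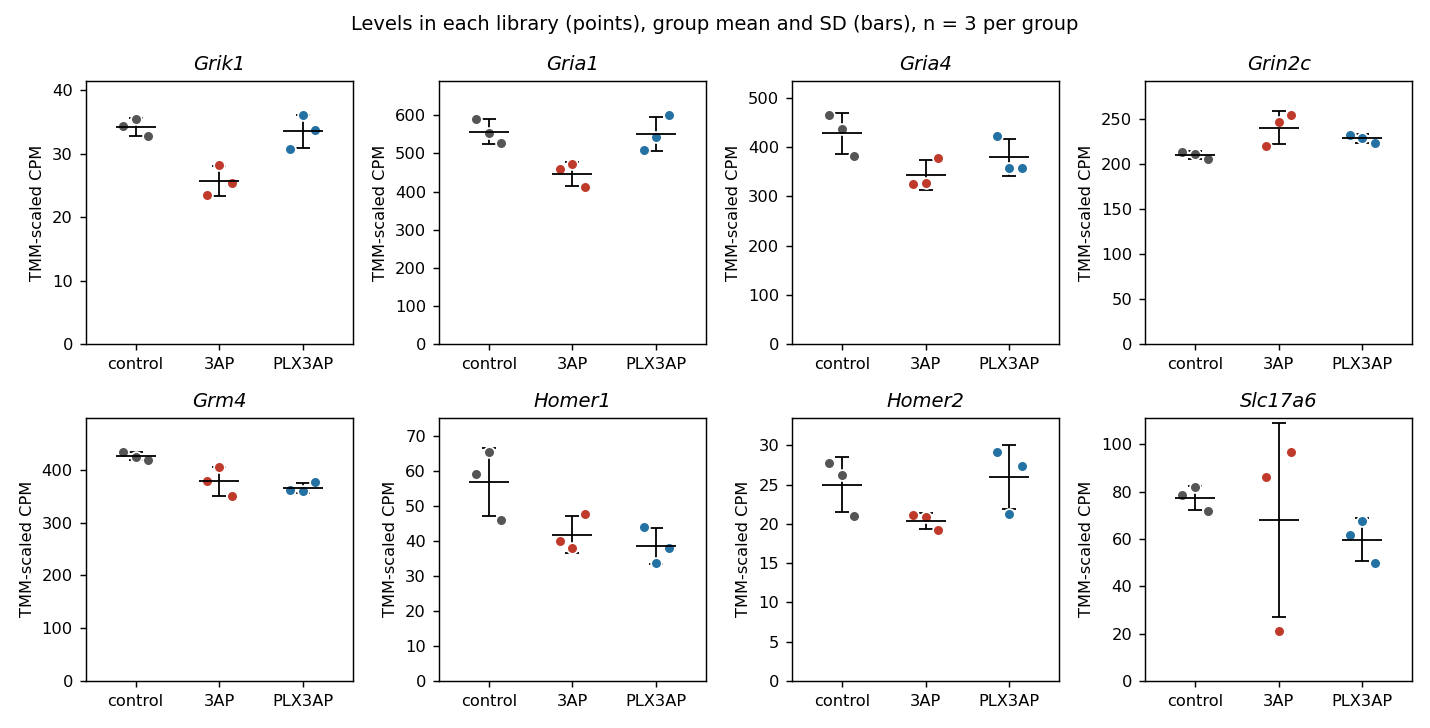
TMM-scaled CPM of 8 members in each library (points), with the group mean and SD (bars), n = 3 per group, on axes that start at 0. The 3AP points of Grik1 (23.6 to 28.2 CPM) and Gria1 (412 to 472 CPM) lie below those of control and PLX3AP, the Homer1 points of PLX3AP lie below those of control, and 1 3AP point of Slc17a6 (20.9 CPM) lies far below the rest.

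NMDA receptors combine the obligatory subunit Grin1 with GluN2 subunits, of which Grin2c is the form typical of mature granule cells and Grin2b of developing ones. None of the 6 passed in any comparison. Grin1 (chr2:25291181-25319187, minus strand) had 319, 317 and 299 CPM in control, 329, 325 and 309 in 3AP and 280, 333 and 334 in PLX3AP, so the groups overlapped. Its log2 difference was 0.04 (SE 0.08, interval -0.13 to 0.21, edgeR adjusted p = 0.851) in 3AP against control, -0.02 (SE 0.08, adjusted p = 0.944) in PLX3AP against 3AP and 0.02 (SE 0.08, adjusted p = 0.963) in PLX3AP against control. Grin2c was the member whose 3AP libraries were all above control, at 221, 248 and 255 CPM against 214, 212 and 206, with 233, 230 and 224 in PLX3AP. The difference in 3AP against control was 0.20 (SE 0.07, interval 0.04 to 0.35, edgeR adjusted p = 0.159), and the PLX3AP libraries too lay above control without overlap, at 0.12 (adjusted p = 0.603). The scarcer subunits overlapped between groups. Grin2b ran from 16.0 to 34.2 CPM over the 9 libraries (-0.42 in 3AP against control, SE 0.20, edgeR adjusted p = 0.337), Grin2a from 37.1 to 49.4 and Grin2d from 8.58 to 12.6. Grin3a, a modulatory subunit, had group means of 28.4 to 31.2 CPM.

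Grid1, a delta receptor that binds cerebellins and builds synapses, had 31.4, 30.0 and 31.7 CPM in control. The 3AP libraries held 27.7, 25.7 and 27.6 CPM and the PLX3AP libraries 25.3, 29.0 and 27.9 CPM. Control lay above both other groups without overlap, yet neither difference passed, at -0.20 (SE 0.09, edgeR adjusted p = 0.255) in 3AP against control and -0.18 (SE 0.09, adjusted p = 0.538) in PLX3AP against control. PLX3AP against 3AP was at 0.02 (SE 0.09, adjusted p = 0.955).

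Of the metabotropic receptors 0 of 6 passed in any comparison. Grm4, the presynaptic receptor of parallel fibre endings, was the most abundant of them. It had 434, 424 and 419 CPM in control, 380, 405 and 350 in 3AP and 361, 360 and 377 in PLX3AP. In CPM, though not in TPM, control again lay above both treated groups without overlap, and the treated groups overlapped. The log2 difference was -0.17 (SE 0.07, interval -0.32 to -0.02, edgeR adjusted p = 0.239) in 3AP against control, -0.22 (SE 0.07, interval -0.37 to -0.06, adjusted p = 0.360) in PLX3AP against control and -0.05 (SE 0.07, adjusted p = 0.859) in PLX3AP against 3AP.

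Grm2, the group II receptor of Golgi cells, was at 18.2 to 20.9 CPM in control, 19.2 to 22.6 in 3AP and 22.2 to 25.1 in PLX3AP, where it lay above control without overlap (0.28, SE 0.10, edgeR adjusted p = 0.418). Grm3, the group II receptor also known from astrocytes, was lower in each PLX3AP library (15.3 to 17.7 CPM) than in each 3AP library (18.3 to 22.3 CPM), at -0.28 (SE 0.13, adjusted p = 0.424 by edgeR). The group III receptors Grm7 and Grm8 were lower in PLX3AP than in control without overlap, at -0.17 (edgeR adjusted p = 0.580) and -0.29 (adjusted p = 0.605). The margins were thin. The highest PLX3AP library had 19.7 CPM against 20.0 in the lowest control library for Grm7, and 6.64 against 6.68 for Grm8. Grm5, a group I receptor that signals through phospholipase C, had 21.1, 27.8 and 18.1 CPM in control, 20.1, 6.87 and 23.0 in 3AP and 18.2, 16.0 and 14.3 in PLX3AP. Its fold change rested on 3AP replicate 2, since -0.42 in 3AP against control (edgeR adjusted p = 0.667) became -0.05 without that library (adjusted p = 0.943).

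Homer scaffolds bind group I metabotropic receptors and Shank proteins. Homer3, the Purkinje cell form, was the most abundant, with 421, 390 and 401 CPM in control, 403, 459 and 373 in 3AP and 385, 426 and 433 in PLX3AP. The groups overlapped, at 0.03 (SE 0.09, edgeR adjusted p = 0.917) in 3AP against control, 0.01 (SE 0.09, adjusted p = 0.975) in PLX3AP against 3AP and 0.04 (SE 0.09, adjusted p = 0.922) in PLX3AP against control. Homer1 (chr13:93299635-93405129, plus strand) gives long scaffold forms and a short activity-induced form, which gene-level counts do not separate. It had 59.0, 65.4 and 46.1 CPM in control, 39.9, 37.8 and 47.8 in 3AP and 44.0, 33.8 and 38.0 in PLX3AP. The PLX3AP libraries were all below control, and 1 3AP library was above control replicate 3. Homer1 differed by -0.56 (SE 0.14, interval -0.87 to -0.25, edgeR adjusted p = 0.272) in PLX3AP against control, the member with the smallest unadjusted p there. It was at -0.44 (SE 0.14, interval -0.75 to -0.14, adjusted p = 0.112) in 3AP against control and -0.12 (SE 0.14, adjusted p = 0.824) in PLX3AP against 3AP. Without control replicate 3, Homer1 passed in 3AP against control at -0.57 (edgeR adjusted p = 0.0283), and without control replicate 2 it was at -0.33 (adjusted p = 0.342). PLX3AP against control was at -0.69 without control replicate 3 (adjusted p = 0.122) and at -0.45 without control replicate 2 (adjusted p = 0.653). With the GC and length offset Homer1 was at -0.31 in PLX3AP against control (edgeR adjusted p = 0.208), passed at -0.37 in 3AP against control (adjusted p = 0.0239), and turned to 0.07 in PLX3AP against 3AP (adjusted p = 0.807).

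Homer2 followed another order, with 27.7, 26.3 and 21.1 CPM in control, 21.2, 20.8 and 19.3 in 3AP and 29.2, 21.3 and 27.4 in PLX3AP. PLX3AP lay above 3AP without overlap by a margin of less than 1 CPM (0.34, SE 0.13, interval 0.06 to 0.63, edgeR adjusted p = 0.278). In 3AP against control it was at -0.29 (SE 0.13, adjusted p = 0.288) and in PLX3AP against control at 0.05 (SE 0.13, adjusted p = 0.930).

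Promoter sequences were read for Homer1, which had the lowest estimate of the set in PLX3AP against control in the main edgeR fit. This was not so in every setting, as Grm5 was lower at -0.35 with the GC and length offset. Without PLX3AP replicate 2, Slc17a6 was at -0.477 and Homer1 at -0.473. The promoter of Grin1, a receptor member of close level in all groups, was read as well. The choice was made because the cyclic AMP response element is a well known promoter element of activity-dependent neuronal genes. RefSeq promoter windows (GRCm38.p6), here the 250 bases before a start site, were at hand for 22 of the 36 members in 36 windows. The half-site TGACG, searched on both strands (CGTCA where it lies on the other strand), was found in 17.8% of 32851 windows of this length and in 6 of the 36 windows of members (16.7%). Those belong to 6 of the 22 members, Homer1, Grin1, Grm8, Dlg3, Dlg4 and Slc17a6. The GC box GGGCGG, searched likewise, was in 32.7% of all windows and in 17 of 36 windows of members (47.2%). A window of Homer1 (chr13:93303507-93303756, plus strand, 62.4% G and C) held 3 matches to the half-site and that of Grin1 (chr2:25319188-25319437, minus strand, 58.8% G and C) held 2, in capitals below, with none of the GC box. The other Homer1 window (chr13:93307784-93308033) held neither motif. Both are written 5′ to 3′ along the gene.
Homer1: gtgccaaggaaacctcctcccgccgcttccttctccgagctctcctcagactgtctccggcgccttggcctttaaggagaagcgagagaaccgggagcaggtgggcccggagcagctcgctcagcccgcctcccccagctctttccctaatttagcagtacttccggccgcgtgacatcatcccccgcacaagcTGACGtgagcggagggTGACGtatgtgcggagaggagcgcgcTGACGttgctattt
Grin1: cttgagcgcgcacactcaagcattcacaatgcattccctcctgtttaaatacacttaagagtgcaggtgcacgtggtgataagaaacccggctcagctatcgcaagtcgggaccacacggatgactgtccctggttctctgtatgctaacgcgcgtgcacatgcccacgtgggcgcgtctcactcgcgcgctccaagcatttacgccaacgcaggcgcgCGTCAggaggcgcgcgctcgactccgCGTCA
Homer1 and Grin1 are the 2 members that carry the half-site more than once in a window. They were picked for unlike values, -0.56 for Homer1 and 0.02 for Grin1 in PLX3AP against control, neither of which passed. Their contrast was therefore set by the choice, and a link between the half-site and these values was not tested. A match to the letters is a description of the window only.

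Shank and Dlg proteins are scaffold layers that tie receptors to actin and to the membrane. None of the 3 Shank and 4 Dlg genes passed in any comparison, and their log2 differences lay between -0.15 and 0.11 in the 3 comparisons. Shank3 had 247, 233 and 212 CPM in control, 228, 251 and 258 in 3AP and 227, 224 and 243 in PLX3AP. It gave 0.09 (SE 0.08, edgeR adjusted p = 0.622), -0.09 (SE 0.08, adjusted p = 0.736) and 0.00 (SE 0.08, adjusted p = 0.997) in 3AP against control, in PLX3AP against 3AP and against control. Dlg4, which encodes PSD-95, had 384, 369 and 370 CPM in control, 371, 374 and 349 in 3AP and 333, 392 and 397 in PLX3AP. Its differences in the same order were -0.04 (SE 0.08, edgeR adjusted p = 0.858), 0.04 (SE 0.08, adjusted p = 0.905) and 0.00 (SE 0.08, adjusted p = 0.997), with intervals between -0.21 and 0.21. Shank1, Shank2, Dlg1, Dlg2 and Dlg3 overlapped between the groups in each comparison.

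The vesicular transporter Slc17a6 (VGLUT2; chr7:51622006-51671119, plus strand) loads glutamate into vesicles of climbing fibres, of part of the mossy fibres and of cerebellar nuclear neurons. Control had 78.5, 82.0 and 72.0 CPM. The 3AP libraries had 86.0, 20.9 and 96.7 CPM, and the PLX3AP libraries 61.7, 67.8 and 49.7 CPM. Replicates 1 and 3 of 3AP were above all other libraries and replicate 2 below all others, while PLX3AP lay below control without overlap. None of the differences passed, at -0.19 (SE 0.50, interval -1.39 to 1.01, edgeR adjusted p = 0.898) in 3AP against control, -0.18 (SE 0.50, adjusted p = 0.931) in PLX3AP against 3AP and -0.38 (SE 0.50, adjusted p = 0.849) in PLX3AP against control. Without 3AP replicate 2, 3AP against control was at 0.24 (edgeR adjusted p = 0.436), and PLX3AP against 3AP passed at -0.61 (adjusted p = 0.0169). The direction of the latter held in 11 of 17 alternative settings. Among those in which it turned were leaving out 3AP replicate 1 or 3, at 0.02 and 0.16, and limma-voom, at 0.09, none of which passed. Its sign thus depends on which libraries and test are used. Cnih3, an auxiliary subunit that slows AMPA receptor closing, was likewise at 2.68 CPM in that library and at 15.7 and 16.3 CPM in 3AP replicates 1 and 3.

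Neuronal pentraxins did not pass in any comparison. Nptx1, the most abundant, had 730, 705 and 679 CPM in control, 755, 808 and 720 in 3AP and 663, 754 and 796 in PLX3AP, which overlapped. The differences were 0.11 (SE 0.08, edgeR adjusted p = 0.563), -0.05 (SE 0.08, adjusted p = 0.890) and 0.07 (SE 0.08, adjusted p = 0.830) in 3AP against control and in PLX3AP against 3AP and control. Its receptor partner Nptxr lay between 260 and 327 CPM in all libraries. Nptx2, the activity-induced pentraxin, was near the lower end of what these libraries can measure, at 1.37 to 4.42 CPM.

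Per transcript length, the deposited TPM values show which subunits dominate. In control the highest means were those of Homer3 at 314 ± 21.9 TPM, Dlg4 at 239 ± 17.7, Nptx1 at 220 ± 16.7, Gria1 at 169 ± 17.3 and Grm4 at 167 ± 10.6 (SD, n = 3), followed by Gria4 at 152 ± 20.9. Gria1 and Grm4 lay within their SDs of each other, and Gria4 lay within its own SD of both. The lowest were Grin2b at 1.89 ± 0.572, Nptx2 at 2.47 ± 0.709 and Grin2d at 2.92 ± 0.348. Grin2c made up 87.6 to 90.4% of summed GluN2 TPM in control, 89.2 to 91.1% in 3AP and 88.9 to 90.3% in PLX3AP. Homer3 made up 90.4 to 95.1% of the Homer genes and Grm4 77.8 to 83.3% of the 6 metabotropic receptors over the 9 libraries. In these classes the leading subunit was the same in every library.

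AMPA and kainate subunits were more evenly shared. Gria1 took 38.1 to 41.8% of AMPA subunit TPM in control, 31.5 to 40.0% in 3AP and 37.3 to 45.1% in PLX3AP, ranges that overlap. Gria3 took 9.03 to 9.90% in control, 10.7 to 11.5% in 3AP and 9.22 to 10.1% in PLX3AP, so that its 3AP shares lay above the others although its CPM overlapped. Grik1 took 18.2 to 19.0% of kainate TPM in control, 13.9 to 15.8% in 3AP and 16.9 to 18.6% in PLX3AP, again without overlap between 3AP and the others. Homer2 took 2.08 to 2.18% of the Homer TPM in control, 1.42 to 1.68% in 3AP and 1.69 to 2.96% in PLX3AP. Grm2 took 3.09 to 3.31% of the metabotropic TPM in control, 3.63 to 4.04% in 3AP and 4.17 to 5.47% in PLX3AP, which lay furthest from control. Grin2b took 1.67 to 2.72% of GluN2 TPM in control, 1.04 to 1.64% in 3AP and 1.28 to 1.86% in PLX3AP, which overlapped both. Shares within a class move together by construction and were not tested.

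**Figure D4:**
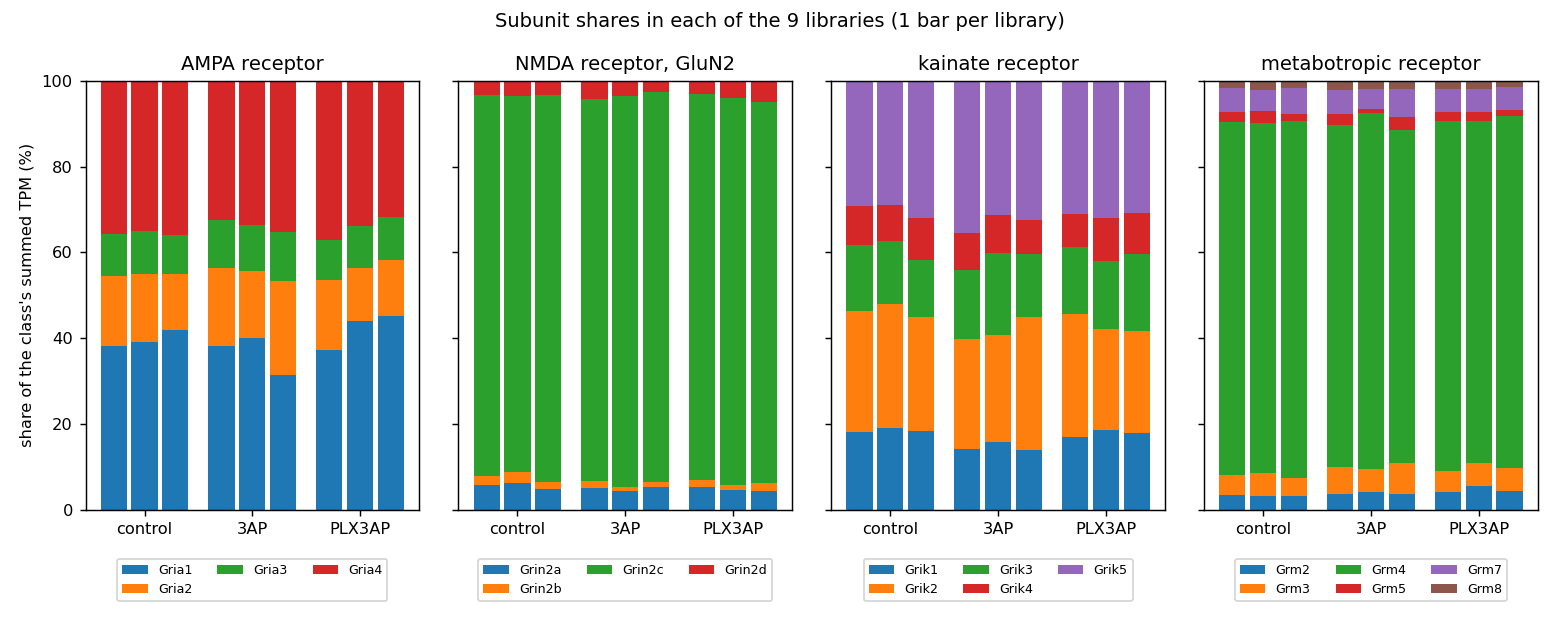
Share of each subunit in the summed TPM of its class (percent), 1 bar per library, for AMPA, GluN2, kainate and metabotropic receptors. Grin2c and Grm4 fill most of their classes in all 9 bars, and the Grik1 segment is shorter in 3AP (13.9 to 15.8%) than in control (18.2 to 19.0%) and PLX3AP (16.9 to 18.6%).

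Other genes of glutamate transmission were counted from lists of 48 genes, of which 46 were tested. In 3AP against control 0 rose and 2 fell, in PLX3AP against 3AP 3 rose and 0 fell, and in PLX3AP against control 0 passed, which is 4.35, 6.52 and 0% of the tested list genes, beside 4.93, 3.73 and 0.120% of all tested genes. The median log2 fold changes of the lists were -0.04, 0.04 and 0.00. The genes that fell were both among the 15 auxiliary subunits of AMPA and kainate receptors. Shisa9, an AMPA receptor auxiliary protein that shapes short-term plasticity, had 47.7, 45.1 and 43.4 CPM in control, 29.8, 27.2 and 28.2 in 3AP and 42.3, 44.1 and 45.8 in PLX3AP. Its 3AP libraries lay below all others, and it fell by 0.68 (SE 0.08, edgeR adjusted p = 0.000239) and rose by 0.63 (SE 0.08, adjusted p = 0.000367) on the log2 scale in the comparisons of 3AP with control and of PLX3AP with 3AP, which share the 3AP libraries. Cacng4, an AMPA receptor trafficking subunit of the TARP family, had 36.8, 39.5 and 44.5 CPM in control, 23.1, 22.2 and 27.7 in 3AP and 31.5, 39.3 and 35.6 in PLX3AP. Cacng4 fell by 0.73 (SE 0.11, edgeR adjusted p = 0.00232) and rose by 0.55 (SE 0.12, adjusted p = 0.0161), and it is also in the list of oligodendrocyte precursor markers. Glud1, the mitochondrial glutamate dehydrogenase, rose in PLX3AP against 3AP by 0.27 (SE 0.06, edgeR adjusted p = 0.0274), from 255 ± 9.47 to 309 ± 2.58 CPM, with control at 299 ± 7.93 (SD, n = 3 each). Shisa9 passed in both comparisons with any 1 library left out. Cacng4 did so in 3AP against control, but in PLX3AP against 3AP it no longer passed without 3AP replicate 1 or 2 or PLX3AP replicate 2 or 3 (edgeR adjusted p = 0.0918, 0.0801, 0.0968 and 0.0587). Glud1 passed without PLX3AP replicate 1, and its adjusted p was 0.0648 to 0.130 without any other library of these groups. Among the 18 other scaffold and signalling genes, and the 3 tested receptors that are not members, 0 passed in any comparison.

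The tissue label was checked against markers of cerebellar cells, and other cell types were read beside the members. Purkinje cell markers summed to 5368 to 6422 TPM in control, 5529 to 6642 in 3AP and 5965 to 7038 in PLX3AP, and granule cell markers to 1516 to 1726, 1302 to 1501 and 1477 to 1608 TPM. Of 7 Purkinje, 6 granule and 6 interneuron markers 0 passed in any comparison. Glial markers, Cacng4 among them, differed in 3AP against control and in PLX3AP against 3AP. Of 8 microglial markers 5 rose in 3AP against control and 6 fell in PLX3AP against 3AP, their sum being 131 to 145 TPM in control, 263 to 320 in 3AP and 80.6 to 130 in PLX3AP. Of 6 oligodendrocyte precursor markers 3 fell in 3AP against control, 1 (Cacng4) rose in PLX3AP against 3AP and 1 fell in PLX3AP against control, with sums of 96.4 to 103, 70.5 to 83.4 and 76.3 to 94.5 TPM. Of 7 astrocyte and Bergmann glia markers 1 rose and 2 fell in 3AP against control, and 1 rose and 1 fell in PLX3AP against 3AP, with sums of 1157 to 1307, 1194 to 1697 and 1160 to 1355 TPM. Of 5 mature oligodendrocyte markers 1 fell in the first of these comparisons and 1 rose in the second, with sums of 4118 to 5019, 3867 to 4462 and 4667 to 5499 TPM. Both unipolar brush cell markers were tested and 1 of them, Eomes, fell in 3AP against control, their sum being 18.7 to 28.3, 8.81 to 16.2 and 11.5 to 13.1 TPM. Eomes no longer passed without control replicate 1, 2 or 3 or without 3AP replicate 2 (edgeR adjusted p = 0.109, 0.137, 0.0599 and 0.0971). With 1 library left out, 4 to 5 microglial markers rose in 3AP against control and 6 to 7 fell in PLX3AP against 3AP. Of the astrocyte and Bergmann glia markers, 0 to 2 then rose and 1 to 2 fell in 3AP against control, and 1 rose and 0 to 1 fell in PLX3AP against 3AP. Gfap lost its call in 3AP against control without control replicate 1, 2 or 3 (edgeR adjusted p = 0.0673, 0.0570 and 0.0514), and Aqp4 without any library other than control replicate 3 (0.0549 to 0.133). In PLX3AP against 3AP Gfap lost its call without 3AP replicate 2 or PLX3AP replicate 1, 2 or 3 (0.0998 to 0.128). Of the oligodendrocyte precursor markers 2 to 3 then fell in 3AP against control and 0 to 1 rose in PLX3AP against 3AP, and of the granule cell markers 0 to 1 fell in 3AP against control and in PLX3AP against control. Choroid plexus markers differed between libraries of 1 group (178 to 6185 TPM in control, 1048 to 3345 in 3AP and 33.8 to 3297 in PLX3AP), and markers of hindbrain outside the cerebellum were near 0, at 0.13 to 2.58 TPM. The part of these cell types in the values of the receptor genes was not tested.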

How the data were processed

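Total RNA of mouse cerebellum was sequenced in 9 libraries, 3 per group. The authors' tools were fastp, HISAT2, StringTie and RSEM, with the mm10 build, per the submitters' processing notes. Their versions, annotation release, strandedness and filters are not given there. Each deposited count file holds expected counts per gene, not normalised, and the deposited TPM files hold TPM, scaled by the authors to transcript length and library total. Expected counts were rounded here to whole numbers. Rows without a gene name (0.526 to 0.660% of counts) were left out.

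All named rows kept by filterByExpr (16634) were fitted in edgeR 4.0.16 (R 4.3.3) with TMM scaling and 1 term per group, tested two-sided with the quasi-likelihood test, and adjusted by Benjamini-Hochberg over all of them. Genes at an adjusted p under 0.05 are called higher or lower. The common biological coefficient of variation was 0.126. Intervals are at 95%, and CPM are TMM-scaled. Within-group chi-square per degree of freedom over genes was 4.80 to 28.3, so no pair of libraries agreed within sampling noise. Alternatives were size factors or upper-quartile scaling, DESeq2 1.42.0, limma 3.58.1 (voom, or trend on log2 TPM with pseudocounts of 1 and 0.1), no filter, 2 groups only, a replicate block and leaving out each library. A GC and length offset, and all alternatives of the test across the 3 groups and of the marker and pathway genes, were chosen after seeing the data. Members, marker lists and pathway lists were chosen with earlier results of these data known. Values in all libraries are given for called members, the most abundant member of each class by control TPM, and the 2 members with the smallest p among those not called in each comparison, and for others where a library or an overlap is described. Positions come from the GENCODE annotation of GRCm38, the assembly behind mm10. The annotation used for the counts may differ.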

Additional observations from a re-analysis of the deposited data

How the results depend on the processing

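With 3 libraries a group, the number of called members depends on the setting, and no call of a member changed direction. In 3AP against control, edgeR called 1 member, DESeq2 4 (Grik1, Gria1, Gria4 and Homer1), limma-voom 2 (Grik1 and Gria1), edgeR with no filter 3 (Grik1, Gria1 and Gria4), the fit of the 2 groups only 2, limma on TPM 0 in each of 3 versions, and the added GC and length offset 5 (Grik1, Gria1, Gria4, Grm4 and Homer1). Leaving out 1 library gave 0 to 2. In PLX3AP against 3AP, against 1 member, DESeq2 called 2 (Grik1 and Gria1), the offset 3 (Grik1, Gria1 and Homer2), limma on TPM 0, the 2 groups only 0, and leaving out 1 library 0 to 2. In PLX3AP against control, against 0, DESeq2 called 1 (Homer1) and the other alternatives 0. For any difference between the 3 groups, no filter gave 3 and leaving out 1 library 0 to 3, against 1. The share of all tested genes that passed is given here for the main edgeR fit only. The counts of members in the other settings therefore cannot be set against all genes, and a larger count is not read as a result about the members. The log2 fold change of Grik1 ranged from -0.48 to -0.35 in 3AP against control and from 0.32 to 0.45 in PLX3AP against 3AP over 17 alternatives. The cause of these changes was not tested.

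The labels give the groups the same replicate numbers. Deviations from the group means of same-numbered libraries correlated at -0.203 to 0.0931, so the numbers were not taken to pair the samples. With a replicate block, 1 member was called in 3AP against control (Grik1, edgeR adjusted p = 0.0356), 0 in PLX3AP against 3AP (Grik1, adjusted p = 0.0565) and 0 in PLX3AP against control. Depth limits Nptx2, at 25 counts in its lowest library.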
